A study of Xenopus tropicalis with 15 samples.

Results

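The genes described here encode the translation factors and the aminoacyl-tRNA synthetases of the Xenopus tropicalis tadpole tail. They were chosen by symbol alone, as genes named eif or eef followed by a number, etf1, and the 1-letter amino acid names ending in ars, ars1 or ars2. This gave 100 of the 34192 gene models in the files, made up of 50 initiation factors and their regulators, 16 elongation and termination factors with their modifying enzymes, and 34 synthetases. Classes follow the symbols, so not every member of the initiation class acts at initiation, such as eif4a3.1, a helicase of the exon junction complex. By their symbols, 17 of the synthetases are cytosolic and 17 mitochondrial. Of the 100 members, 99 passed the filter on low counts. The exception was eif4e1b, an oocyte-type relative of the cap-binding protein, which averaged 0.194 TPM (a level scaled by gene length and to the same total in each library) over the 15 libraries. The rule finds no model for eif4ebp1, eif4ebp3 or aars2, finds eEF2 as eef2.1 and eef2.2, and leaves out eprs1, farsa, farsb and tars3, which were counted with the related genes instead.

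RNA was sequenced from the tails of wild-type tadpoles whose tails were cut at NF stage 41, at 3 days post fertilization, and which were reared at 23 °C. In 3 groups the tadpoles recovered for 24 hours in 5 µM 2-methoxyestradiol (2ME), in 0.5 µM echinomycin or in 10 µM IWR-1 (its 3 treatment labels read IWR-1, IWR-2 and IWR-3), a further group recovered in 0.1% DMSO, and about 250 µm of regenerating tissue was taken. The last group, at 0 hours post amputation (0 hpa), was untreated, and its tissue came from in front of the cut. Each group has 3 libraries, and the title of the series names the compounds as antagonists of Hif1a (2ME and echinomycin) or Wnt signalling (IWR-1). Between DMSO tails and 0 hpa tails the time, the vehicle and the position of the tissue differ together and cannot be told apart.

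Initiation factors bring the small ribosomal subunit and the initiator tRNA to the cap of an mRNA and let it find the start codon. Elongation factors then deliver charged tRNAs and move the ribosome along, release factors end the chain, and synthetases load each tRNA with its amino acid in the cytosol or in mitochondria. Cells adjust this machinery mainly through kinases that phosphorylate eIF2 or eEF2 and through eIF4E-binding repressors under the kinase mTOR. Demand for it is generally high in growing and dividing tissue.

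Libraries held between 17.3 M and 23.4 M estimated counts, and their scaling factors by the trimmed mean of M-values (TMM) were 1.03 to 1.07 with the compounds, against 0.913 to 0.959 in DMSO tails and 0.909 to 0.961 in 0 hpa tails. Unless TPM is named, levels are in CPM (counts scaled to a common library total with the TMM factors), and a change is a log2 ratio ± its standard error with an edgeR quasi-likelihood p adjusted over all 18823 tested models, called under 0.05. The summed levels of cell type markers moved as well. The summed level of the 17 striated muscle markers found was 2360 to 3830 CPM with 2ME, 5360 to 6530 CPM with echinomycin and 4730 to 5370 CPM with IWR-1, against 1740 to 2300 CPM in DMSO tails and 22700 to 25300 CPM in 0 hpa tails. The 11 leukocyte markers summed to 193 to 204 CPM with 2ME, 459 to 554 CPM with echinomycin and 353 to 381 CPM with IWR-1, against 327 to 348 CPM in DMSO tails and 107 to 119 CPM in 0 hpa tails. The 14 neuron markers summed to 256 to 267 CPM with 2ME, 192 to 235 CPM with echinomycin and 247 to 264 CPM with IWR-1. Their sum was 343 to 378 CPM in DMSO tails and 419 to 428 CPM in 0 hpa tails. The 8 epidermis markers summed to 3350 to 3420 CPM with 2ME, 3890 to 4020 CPM with echinomycin and 3080 to 3250 CPM with IWR-1. Their sum was 3670 to 3940 CPM in DMSO tails and 2770 to 3020 CPM in 0 hpa tails. Single markers of a type did not all move with the sum. In DMSO tails relative to 0 hpa, 3 neuron markers rose and 8 fell, and 5 epidermis markers rose and 3 fell. Of the leukocyte markers 10 rose and 1 fell, and of the muscle markers 0 rose and 14 fell. Of all models 32.2% rose and 30.8% fell. The part of cell composition in the changes of the translation genes was not tested, and in bulk tissue fewer cells of a type and less RNA per cell cannot be told apart.

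The members differed far more in level than any of them did between groups. On the TPM scale, which accounts for length, eef1a1, the GTPase that carries aminoacyl-tRNA to the ribosome, averaged 6120 TPM over the 15 libraries, the highest level of any member. Next came eef2.1, the translocation GTPase, at 1950 TPM, and eef1g, a structural subunit of the exchange factor eEF1B, at 1440 TPM. The leading initiation factors were the helicase eif4a1 at 715 TPM and the start codon factor eif1b, in its main model, at 597 TPM. Models under 200 bases, a second eif1b model and a sars2 model of 102 bases whose TPM averaged 773, are left out of these levels. Cytosolic synthetases had a median level of 51.3 TPM, with gars1 for glycine highest at 193 TPM, and the other 16 mitochondrial ones a median of 8.02 TPM, with hars2 for histidine highest among them at 69.1 TPM. That gene exceeded its cytosolic counterpart hars, at 9.49 TPM, and the compartment of each product was taken from the symbol and not checked. The 4 eIF2 kinases lay between 5.89 and 17.2 TPM, and eef2k, the kinase that inhibits eEF2, at 3.74 TPM.

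In the eEF1A and eEF2 families 1 paralogue held nearly all of the level in every group. The share of eef1a1 in the eEF1A TPM was 99.7% to 99.9% over the 15 libraries, while eef1a2, the form of muscle and neurons in mammals, averaged 1.46 TPM. The share of eef2.1 in the eEF2 TPM was 98.7% to 98.8% with echinomycin, against 99.1% to 99.2% in DMSO tails. The share of eif4a2 in the sum of eif4a1 and eif4a2 TPM was 9.19% to 9.57% with echinomycin, against 7.67% to 7.95% in DMSO tails. In both pairs the minor paralogue held a larger share in each echinomycin library than in any DMSO library. This was not particular to echinomycin for eif4a2, whose share in 0 hpa tails, 8.16% to 8.54%, was also above every DMSO library. Its share was 7.68% to 8.23% with 2ME and 7.26% to 7.76% with IWR-1. The share of eef2.1 with IWR-1 was 99% to 99.1%, at or below the DMSO range, so a larger eef2.2 share was not confined to echinomycin. With 2ME the eef2.1 share was 99.1% to 99.2%, and in 0 hpa tails 99.2% to 99.3%.

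**Figure D1:**
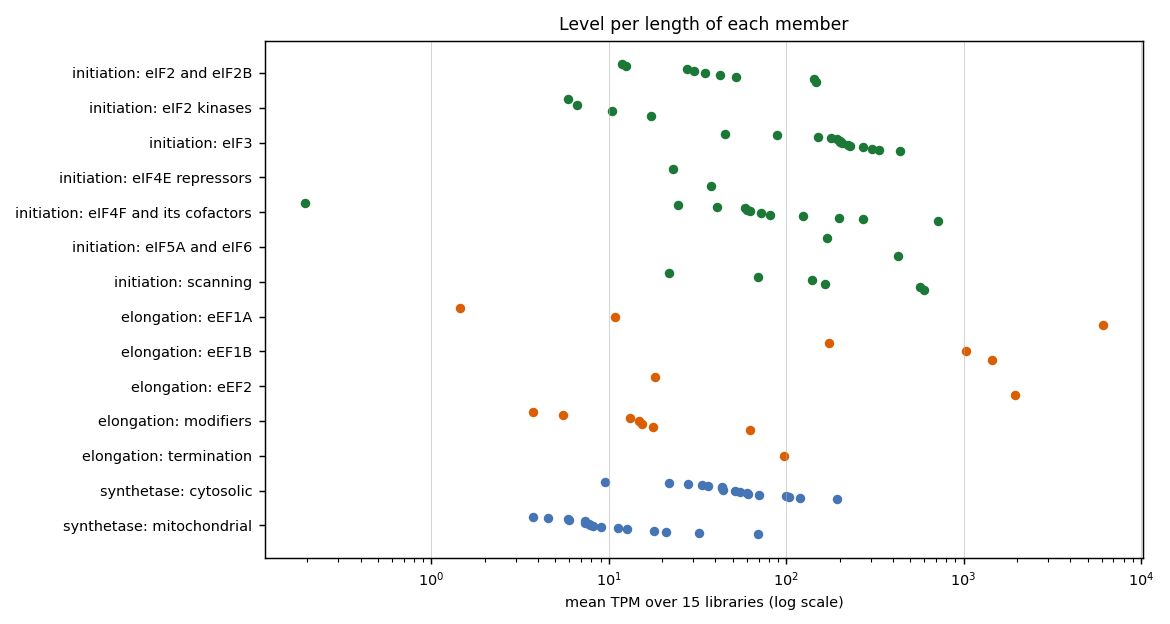
Mean TPM over 15 libraries (log axis) of each member with a model of at least 200 bases, 1 point per gene, by role, for initiation factors (green), elongation and termination factors (orange) and synthetases (blue). The elongation factor eef1a1 lies highest at 6120 TPM, and the mitochondrial synthetases, with a median of 8.02 TPM, lie lower than most of the cytosolic ones.

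Which of the 5 groups was highest depended on the scale, while 0 hpa tails were most often the lowest on every scale compared. By group means in TMM-scaled CPM, DMSO tails were the highest group for 66 of the 99 tested members and 2ME tails for 10. In CPM without a scaling factor DMSO tails were highest for 37 and 2ME tails for 34. In the deposited TPM 2ME tails were highest for 51, IWR-1 tails for 23 and DMSO tails for 14. The 0 hpa tails were lowest for 50, 65 and 63 members on these scales in the same order, and echinomycin tails for 35, 21 and 21. Among synthetases in TMM-scaled CPM, echinomycin tails were lowest for 24 of 34. Summed over members, initiation factors made up 11610 to 11820 CPM with 2ME, 9839 to 10030 CPM with echinomycin and 10970 to 11100 CPM with IWR-1, against 12510 to 13500 CPM in DMSO tails and 8740 to 9950 CPM in 0 hpa tails. On this sum the DMSO libraries stood above all others, and the echinomycin and 0 hpa ranges met. As a share of all TPM, initiation factors made up 0.833% to 0.852% with 2ME, 0.697% to 0.741% with echinomycin and 0.774% to 0.833% with IWR-1, against 0.805% to 0.82% in DMSO tails and 0.585% to 0.6% in 0 hpa tails. By this share every 2ME library lay above every DMSO library, and the IWR-1 and DMSO ranges overlapped. The echinomycin libraries lay between those of DMSO and 0 hpa tails. Elongation and termination factors made up 1.14% to 1.19% of all TPM with 2ME, 1.1% to 1.13% with echinomycin and 1.16% to 1.21% with IWR-1, against 1.11% to 1.13% in DMSO tails and 0.906% to 0.911% in 0 hpa tails.

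**Figure D2:**
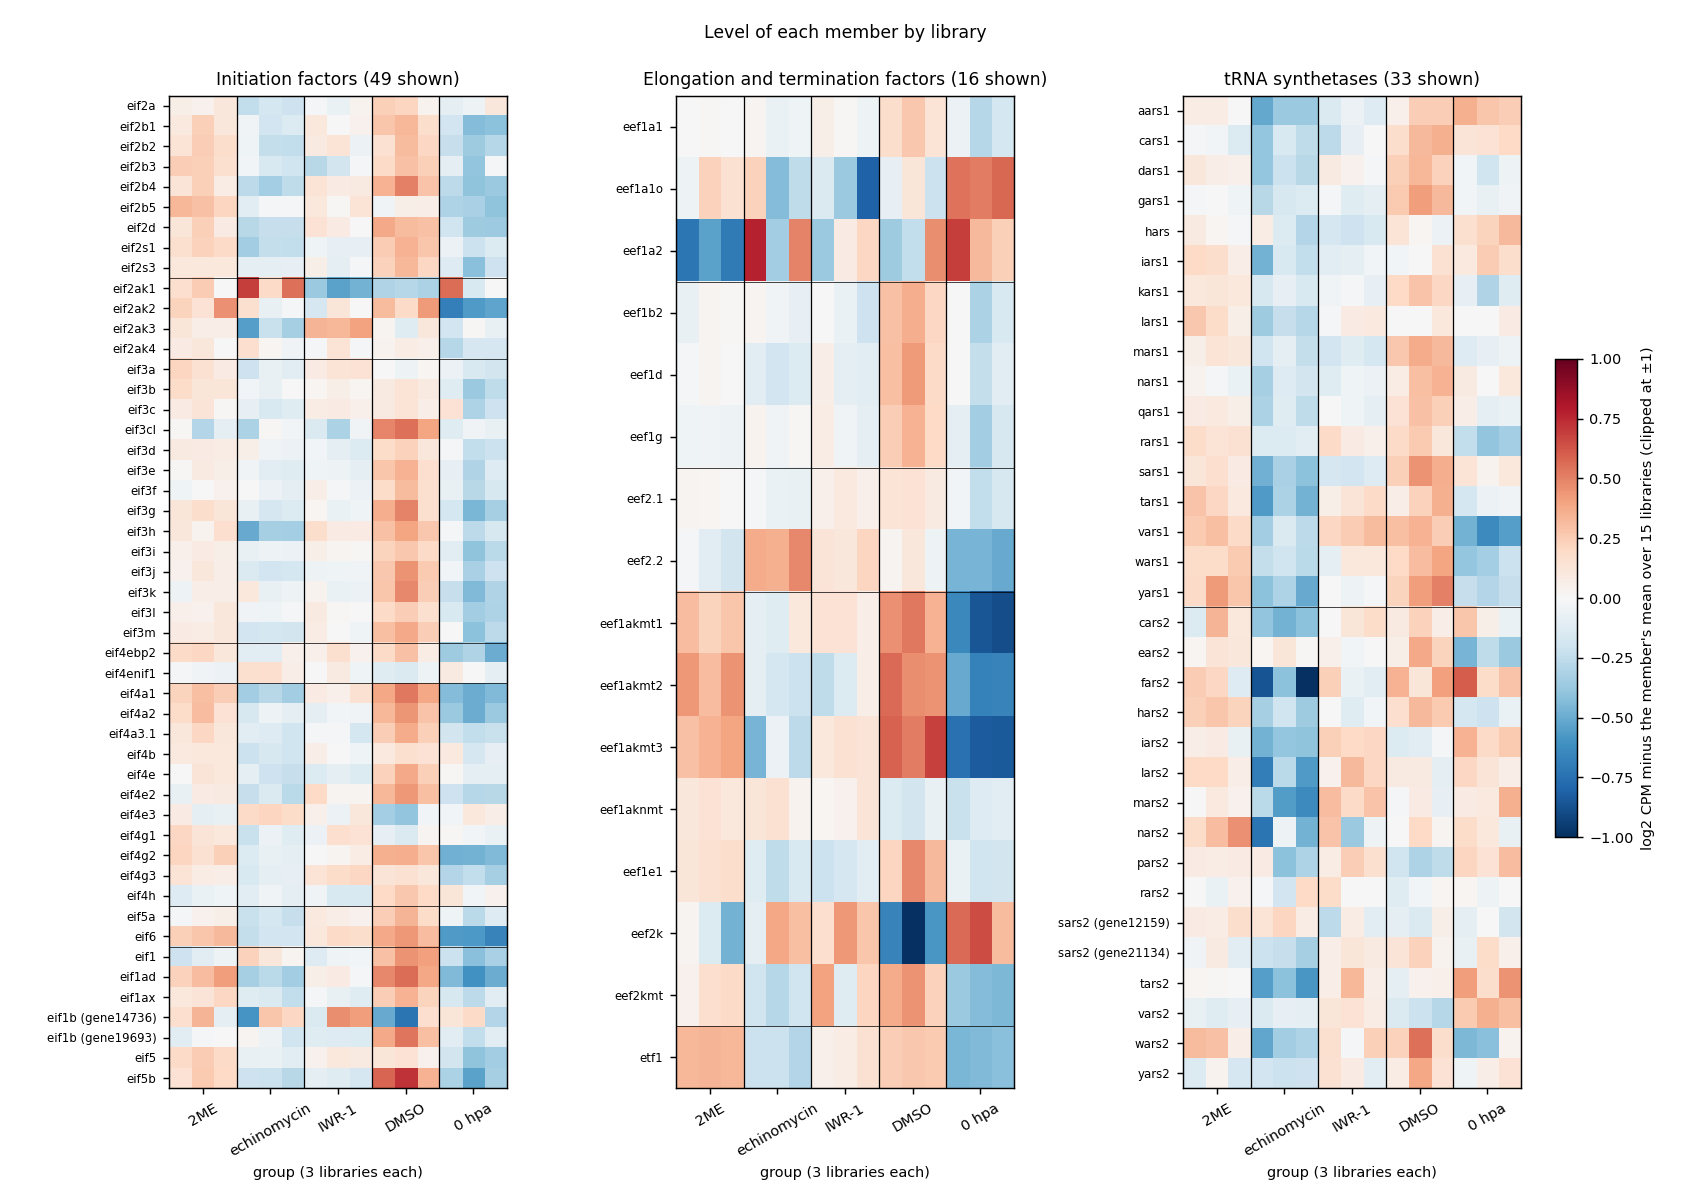
Level of the tested members shown in each of the 15 libraries, as log2 TMM-scaled CPM minus the mean of that member over all libraries (red above, blue below, clipped at 1 either way), with 3 libraries per group in the order 2ME, echinomycin, IWR-1, DMSO and 0 hpa. DMSO columns are mostly red, 0 hpa columns are mostly blue for initiation factors, and echinomycin columns are mostly blue for synthetases.

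In DMSO tails at 24 hours, set against 0 hpa tails, most of the translation machinery rose. Of the 99 tested members 78 were called, where 63.0% of all tested models were: 69 members rose and 9 fell, against 32.2% and 30.8% of all models. Their median log2 ratio was 0.40, against 0.00 over all models. By class, 42 of 49 initiation factors rose and 2 fell, 12 of 16 elongation and termination factors rose and 2 fell, and 15 of 34 synthetases rose and 5 fell. For 75 members the groups did not overlap, which held for 66.8% of all models. The changes were mostly moderate, since 4 members changed at least 2-fold, where 23.2% of all models did, and these 4 are enzymes that modify eEF1A or eEF2.

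Among members with initiation factor symbols the largest rises were those of eif1ad, eif6 and eif5b. The GTPase eif5b, which joins the ribosomal subunits, had 353, 390 and 300 CPM in DMSO tails, against 189, 163 and 187 CPM in 0 hpa tails (log2 ratio 0.95 ± 0.08, adjusted p = 2.37e-08). The factor eif6, which keeps new large subunits from joining small ones, had 166, 172 and 158 CPM in DMSO tails, against 86.2, 85.6 and 80.2 CPM in 0 hpa tails (0.98 ± 0.05, adjusted p = 9.76e-11). For eif1ad, a protein with an eIF1A-like domain, the levels were 32.5, 34.4 and 30.4 CPM in DMSO tails, against 17.2, 15.3 and 16.5 CPM in 0 hpa tails (0.99 ± 0.08, adjusted p = 8.97e-09). For all 3 genes every DMSO library lay above every 0 hpa library.

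The genes of the cap-binding complex eIF4F and its relatives changed by unequal amounts. The helicase eif4a1 had 1080, 1190 and 1080 CPM in DMSO tails, against 614, 586 and 609 CPM in 0 hpa tails, a log2 ratio of 0.89 ± 0.05 (adjusted p = 4.95e-10). Its paralogue eif4a2 rose by 0.77 ± 0.06 and the eIF4E-independent scaffold eif4g2 (DAP5) by 0.80 ± 0.05. The cap-binding subunit eif4e rose less, by 0.34 ± 0.06 (142, 157 and 143 CPM, against 122, 113 and 114 CPM at 0 hpa), and the scaffold eif4g1 had a ratio of −0.04 ± 0.07, which was not called. The repressor eif4ebp2, a 4E-BP that mTOR releases from eIF4E, also rose, by 0.57 ± 0.07. Opposite to these, eif4e3, a cap-binding relative of eif4e, fell by 0.29 on the log2 scale (SE 0.09, adjusted p = 0.0106), with 1 DMSO library level with the lowest 0 hpa library at 25.9 CPM.

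In the large complexes nearly every gene rose. All 9 members of the eIF2 and eIF2B group rose, which also holds eif2a and eif2d, factors that bring tRNA to the ribosome without eIF2. Among them were the catalytic eIF2B subunit eif2b5 (0.38 ± 0.06), its delta subunit eif2b4 (0.73 ± 0.07) and the eIF2 alpha subunit eif2s1, which the eIF2 kinases phosphorylate (0.43 ± 0.05). Of 14 eIF3 genes, whose complex bridges mRNA and the small subunit, 13 rose, led by eif3g and eif3k (0.66 each). The remaining one, the large subunit eif3a, had 678, 653 and 686 CPM in DMSO tails, against 648, 609 and 594 CPM in 0 hpa tails (0.12 ± 0.06, adjusted p = 0.0627). Summed over eIF3 genes the level was 4880 to 5248 CPM in DMSO tails, against 3579 to 4246 CPM in 0 hpa tails.

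Among elongation factors the enzymes that methylate eEF1A rose most. The lysine methyltransferase eef1akmt3 had 27, 25.6 and 28.8 CPM in DMSO tails, against 10.7, 10.1 and 10 CPM in 0 hpa tails (1.40 ± 0.10, adjusted p = 1.63e-09). Its relatives eef1akmt1 and eef1akmt2 rose by 1.23 ± 0.10 and 1.11 ± 0.12. A further eEF1A methyltransferase, eef1aknmt (METTL13 in human), was not called, with 49.6, 47.9 and 51.7 CPM in DMSO tails, against 46.7, 49.8 and 50.8 CPM in 0 hpa tails. Their substrate eef1a1 rose less than the 3 called enzymes, with 9680, 10300 and 9390 CPM in DMSO tails, against 8220, 7040 and 7590 CPM in 0 hpa tails (0.36 ± 0.06, adjusted p = 5.18e-05). All 3 eEF1B subunits, which reload eEF1A with GTP, rose by 0.42 to 0.46, and the release factor etf1, which reads stop codons, rose by 0.70 ± 0.05. The oocyte form eef1a1o fell by 0.59 on the log2 scale, with 11.3, 13 and 10.3 CPM in DMSO tails, against 17.4, 17 and 17.8 CPM in 0 hpa tails.

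Most of the synthetases that rose were cytosolic, and all those that fell were mitochondrial. Of 17 cytosolic synthetases 12 rose and none fell, while of 17 mitochondrial ones 3 rose and 5 fell. Of all models 32.2% rose and 30.8% fell, so the falls among mitochondrial enzymes were near the share of all models. The largest cytosolic rise was that of vars1 for valine, which had 164, 170 and 158 CPM in DMSO tails, against 96.3, 85.7 and 90.9 CPM in 0 hpa tails (0.85 ± 0.06, adjusted p = 4.27e-09). Its mitochondrial counterpart vars2 had 30.3, 28.9 and 27.4 CPM in DMSO tails, against 40.2, 42.7 and 41.2 CPM in 0 hpa tails (−0.52 ± 0.06, adjusted p = 8.63e-07). The 2 valine enzymes thus changed in opposite directions, with no overlap of the groups for either. The other mitochondrial falls included pars2 for proline (−0.48 ± 0.11), iars2 for isoleucine (−0.35 ± 0.06) and tars2 for threonine (−0.34 ± 0.10), and the rises were ears2, wars2 and hars2 (0.41 to 0.59). Of 9 tested mitochondrial initiation, elongation and release factors outside the symbol rule, none rose and 7 fell, among them the elongation factor gfm1, at 25.2 CPM in DMSO tails, against 39.1 CPM in 0 hpa tails on average. The summed mitochondrial synthetase level was 420.3 to 456.8 CPM in DMSO tails, against 422.3 to 437.6 CPM in 0 hpa tails, so the 2 ranges overlapped. A large part of that sum is hars2, whose compartment was not checked. It had 125, 139 and 133 CPM in DMSO tails, against 98.2, 96.4 and 106 CPM in 0 hpa tails, so the overlap depends on counting it as mitochondrial.

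**Figure D3:**
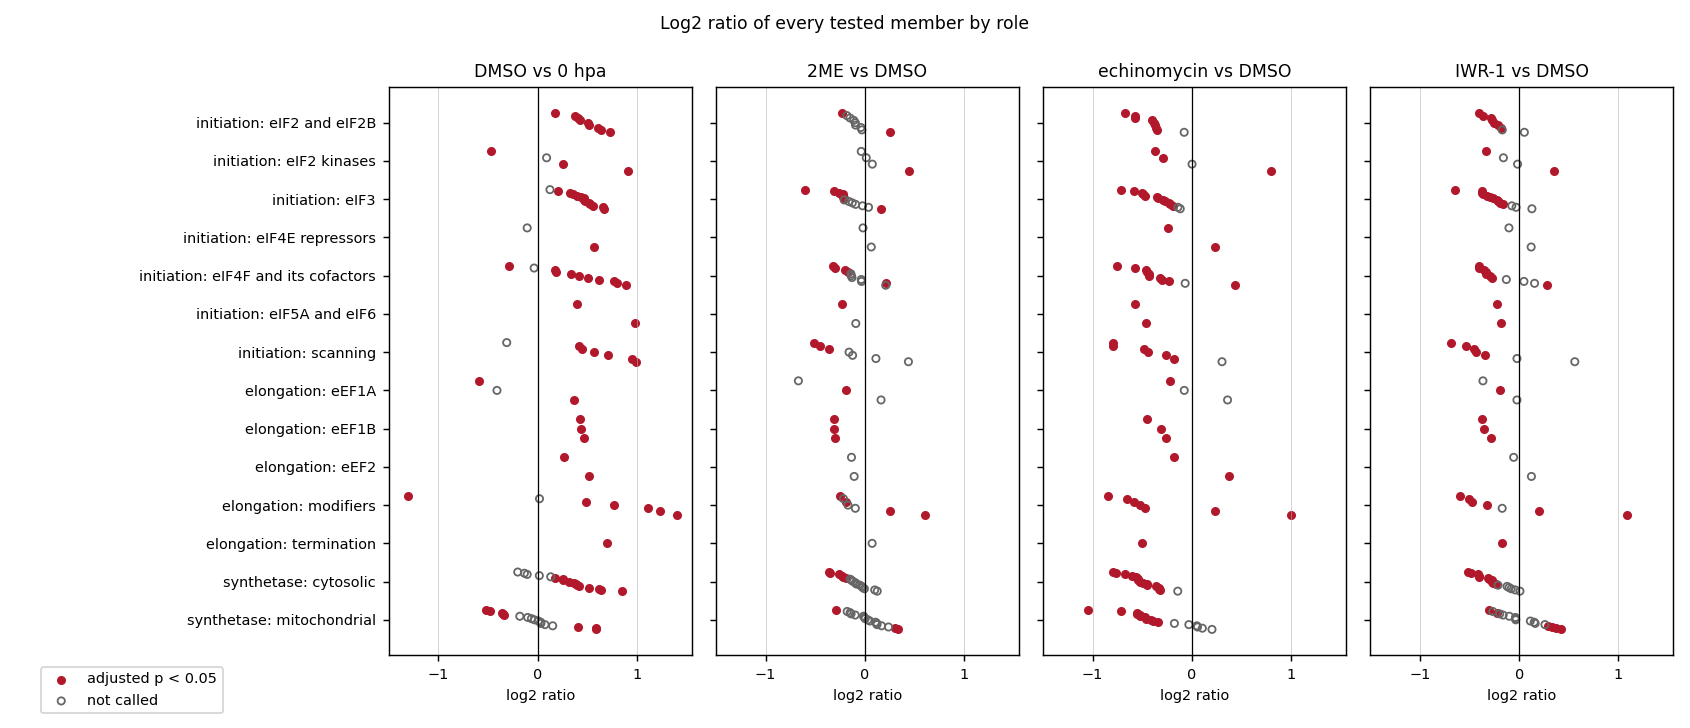
Log2 ratio of each of the 99 tested members by role in 4 comparisons, with filled points called at an adjusted p under 0.05 and open points not called. Points lie mostly right of 0 for DMSO against 0 hpa (69 called higher, 9 lower) and mostly left of 0 for echinomycin against DMSO (6 higher, 78 lower), with 2ME and IWR-1 closer to 0.

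The 3 compound groups were each set against the same 3 DMSO libraries, so their ratios share the error of those libraries. Echinomycin, a DNA-binding antibiotic that keeps Hif1 from its sites, went with more called falls than 2ME or IWR-1. Of 99 tested members 84 were called, where 51.6% of all tested models were: 78 members fell and 6 rose, against 27.0% and 24.6% of all models, and the median log2 ratio was −0.39, against 0.01 over all models. By class, 40 of 49 initiation factors fell and 3 rose, 11 of 16 elongation and termination factors fell and 3 rose, and 27 of 34 synthetases fell and none rose. For 87 members the groups did not overlap, which held for 57.2% of all models, and 2 members changed at least 2-fold, eef2k upward and fars2 downward, where 12.0% of all models did. Without a scaling factor between libraries the median of all models was 0.16, and 64 members fell and 8 rose.

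Among initiation factors the largest falls with echinomycin were those of eif5b, eif1ad and eif4a1. The GTPase eif5b had 204, 203 and 194 CPM with echinomycin, against the DMSO levels of 353, 390 and 300 CPM (−0.79 ± 0.08, adjusted p = 7.1e-07). For eif1ad the levels were 18.5, 19.3 and 18.3 CPM with echinomycin, against 32.5, 34.4 and 30.4 CPM in DMSO tails (−0.79 ± 0.08). The helicase eif4a1 had 650, 683 and 652 CPM with echinomycin, against 1080, 1190 and 1080 CPM in DMSO tails (−0.75 ± 0.05, adjusted p = 2.39e-08). In all 3 genes each echinomycin library was below each DMSO library. Of the eIF3 genes 12 of 14 fell, with eif3h furthest at −0.71 ± 0.07 (157, 177 and 176 CPM, against 273, 293 and 268 CPM in DMSO tails). Of the eIF2 and eIF2B group 8 of 9 fell, and the one not called was the catalytic subunit eif2b5 at −0.08 ± 0.06.

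The 3 initiation members that rose with echinomycin were an eIF2 kinase, a cap-binding relative and a carrier of eIF4E. The eIF2 kinase eif2ak1, described below, rose by 0.79 ± 0.15. The cap-binding relative eif4e3 had 30.1, 30.6 and 30 CPM with echinomycin, against 20.9, 20.1 and 25.9 CPM in DMSO tails (0.44 ± 0.09, adjusted p = 0.000654). Its levels of 27.9, 24.7 and 25 CPM with 2ME and 27.4, 25.4 and 28.5 CPM with IWR-1 were on average also above those of DMSO tails. The eIF4E transporter eif4enif1, which takes eIF4E to the nucleus and to P-bodies, rose by 0.23 ± 0.06 (adjusted p = 0.00346). For eif4e3 and eif4enif1 no echinomycin library overlapped the DMSO range. The repressor eif4ebp2 fell by 0.24 on the log2 scale (adjusted p = 0.00954), a call lost without DMSO replicate 2 (−0.17, adjusted p = 0.0887), without echinomycin replicate 1 (−0.20, adjusted p = 0.0534) and with upper-quartile or no scaling.

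Among elongation factors the largest falls with echinomycin were again those of eEF1A methyltransferases, namely eef1akmt3 and eef1akmt2. A further eEF1A methyltransferase, eef1aknmt, was instead called higher, with 59.3, 60.5 and 55.8 CPM, against 49.6, 47.9 and 51.7 CPM in DMSO tails. The methyltransferase eef1akmt3 had 13, 17.2 and 15 CPM with echinomycin, against 27, 25.6 and 28.8 CPM in DMSO tails (−0.85 ± 0.09, adjusted p = 1.16e-06), and eef1akmt2 had 6.56, 6.17 and 6 CPM, against 10.3, 9.62 and 9.49 CPM in DMSO tails (−0.65 ± 0.11). Release factor etf1 had 138, 138 and 131 CPM with echinomycin, against 190, 194 and 193 CPM in DMSO tails (−0.51 ± 0.05, adjusted p = 2.79e-07). The minor eEF2 gene, eef2.2, rose, with 49.8, 49.1 and 53.5 CPM with echinomycin, against 39.1, 41.7 and 37.1 CPM in DMSO tails (0.37 ± 0.06, adjusted p = 0.000151). The abundant genes eef1a1 (−0.22 ± 0.06, adjusted p = 0.00525) and eef2.1 (−0.18 ± 0.05, adjusted p = 0.0125) fell by little, and neither call held with upper-quartile factors or without a scaling factor. That of eef2.1 was also lost without DMSO replicate 1 (−0.15, adjusted p = 0.055) and without DMSO replicate 2 (−0.15, adjusted p = 0.0531).

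Synthetases fell broadly with echinomycin, in both compartments. Of 17 cytosolic synthetases 16 fell, and of 17 mitochondrial ones 11 fell. The tyrosine enzyme yars1 had 32.6, 35.1 and 30.5 CPM with echinomycin, against 50.5, 57.8 and 61.5 CPM in DMSO tails (−0.79 ± 0.08, adjusted p = 5.89e-07), and the serine enzyme sars1 had 102, 114 and 107 CPM, against 168, 195 and 183 CPM in DMSO tails (−0.76 ± 0.06, adjusted p = 5.45e-08). The one cytosolic gene not called was hars for histidine, at −0.14 ± 0.10. The largest fall of any member was that of the mitochondrial phenylalanine enzyme fars2, a low gene with 2.26, 3.09 and 1.94 CPM with echinomycin, against 5.22, 4.47 and 5.46 CPM in DMSO tails (−1.05 ± 0.19, adjusted p = 0.000232). The groups did not overlap for these 3 called genes. In a split made after the values were seen, the 7 synthetases here of the multi-synthetase complex all fell (median −0.36). Of the 10 other cytosolic synthetases 9 fell (median −0.55). The scaffold eef1e1 (AIMP3) of that complex, matched here by its elongation factor symbol, fell by 0.52 on the log2 scale.

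IWR-1, which stabilises Axin and so restrains Wnt signalling, went with a smaller fall. Of 99 tested members 63 were called, where 42.3% of all tested models were: 55 members fell and 8 rose, against 22.4% and 19.9% of all models, with a median log2 ratio of −0.21, against −0.02 over all models. For 72 members the groups did not overlap, which held for 52.2% of all models, and eef2k alone changed at least 2-fold, where 8.63% of all models did. Without a scaling factor 29 fell and 19 rose, and in a test of the deposited CPM, which hold no such factor, 28 fell and 20 rose among the 95 members found there. Without it the median over all models was 0.14 and that over the members −0.05, so the split between falls and rises with IWR-1 depended on scaling. By class, 33 of 49 initiation factors fell and 2 rose, 9 of 16 elongation and termination factors fell and 2 rose, and 13 of 34 synthetases fell and 4 rose.

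The largest initiation fall with IWR-1 was again eif5b, with 222, 217 and 210 CPM with IWR-1, against 353, 390 and 300 CPM in DMSO tails (−0.68 ± 0.08, adjusted p = 6.11e-06). It was followed by eif3cl, an eif3c-like gene, with 50.3, 44.5 and 54.1 CPM, against 77.8, 81.4 and 72.9 CPM in DMSO tails (−0.64 ± 0.09), and by the main eif1b model, with 304, 303 and 302 CPM, against 431, 480 and 409 CPM in DMSO tails (−0.54 ± 0.07). All 3 genes gave groups without overlap and stayed called without a scaling factor, and the counts of eif3cl are partly shared with other models. The falls of eef1a1 (−0.19 ± 0.06, adjusted p = 0.0164), eif5a, which helps stalled ribosomes form peptide bonds (−0.18 ± 0.06, adjusted p = 0.022), and etf1 (−0.17 ± 0.05, adjusted p = 0.00793) lost their calls without a scaling factor, at −0.03, −0.02 and −0.01. Leaving out 1 library also ended the call of eef1a1 (DMSO replicate 2 or IWR-1 replicate 3, adjusted p = 0.0936 and 0.0717) and that of eif5a (DMSO replicate 1 or 2, or IWR-1 replicate 2 or 3, adjusted p = 0.053 to 0.128).

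With IWR-1, 11 of 17 cytosolic synthetases fell and none rose, and 4 of 17 mitochondrial ones rose and 2 fell, where 22.4% of all models fell and 19.9% rose. The rises among mitochondrial enzymes were thus near the share of all models. The proline enzyme pars2 had 15.8, 17.8 and 16.8 CPM with IWR-1, against 13.1, 12.1 and 12.6 CPM in DMSO tails (0.42 ± 0.11, adjusted p = 0.00531). For valine, vars2 had 36.4, 36.9 and 35.2 CPM, against 30.3, 28.9 and 27.4 CPM in DMSO tails (0.33 ± 0.06, adjusted p = 0.000328). The isoleucine enzyme iars2 rose by 0.29 ± 0.06. These 3 genes were lower in DMSO tails than at 0 hpa, a comparison that uses the same DMSO libraries. Among cytosolic falls, sars1 had 127, 125 and 130 CPM with IWR-1, against 168, 195 and 183 CPM in DMSO tails (−0.51 ± 0.06), and the methionine enzyme mars1 had 71.3, 74.7 and 71.9 CPM, against 98.2, 105 and 102 CPM in DMSO tails (−0.49 ± 0.05). No group overlapped with the DMSO tails for these genes.

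**Figure D4:**
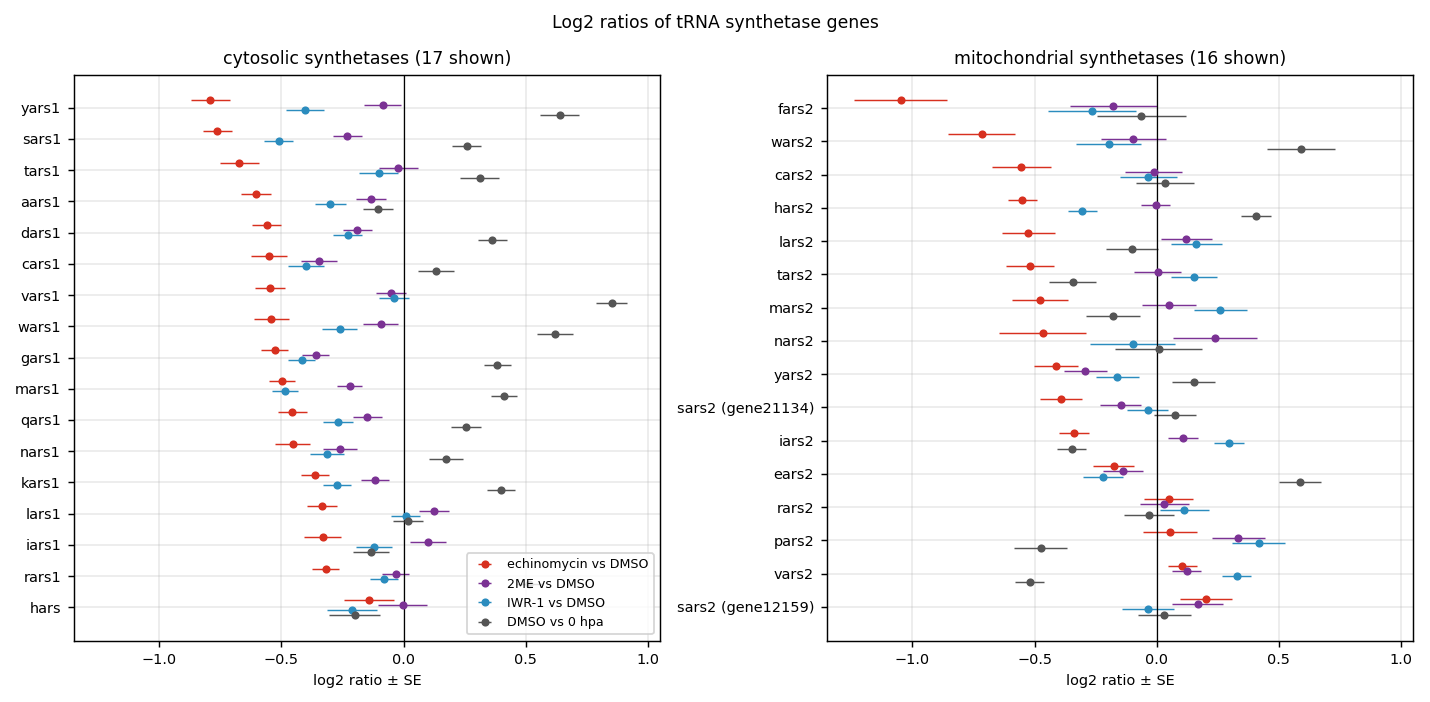
Log2 ratio ± standard error of the synthetase genes shown, cytosolic on the left and mitochondrial on the right, for echinomycin (red), 2ME (purple) and IWR-1 (blue) against DMSO and for DMSO against 0 hpa (grey). Cytosolic points lie left of 0 for echinomycin without exception (16 of 17 called), while mitochondrial pars2, vars2 and iars2 lie right of 0 with IWR-1 and left of 0 for DMSO against 0 hpa.

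With 2ME, a metabolite of estradiol that lowers Hif1a and binds tubulin in mammalian cells, fewer members were called. Of 99 tested members 37 were called, where 30.5% of all tested models were: 29 members fell and 8 rose, against 16.5% and 14.0% of all models, with a median log2 ratio of −0.11, against −0.02 over all models. For 56 members the groups did not overlap, which held for 45.2% of all models, and 0 members changed at least 2-fold, where 4.64% of all models did. Without a scaling factor 10 fell and 18 rose, and on the deposited CPM 10 fell and 17 rose, so the prevailing direction with 2ME changed with scaling. The median over all models was then 0.12, and that over the members 0.03. Single libraries mattered too, with 13 falls and 2 rises without DMSO replicate 2, 17 and 2 without 2ME replicate 1, 24 and 3 without 2ME replicate 2, and 24 and 5 without DMSO replicate 1. By class, 16 of 49 initiation factors fell and 4 rose, 6 of 16 elongation and termination factors fell and 2 rose, and 7 of 34 synthetases fell and 2 rose.

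The falls with 2ME described next stayed called without a scaling factor unless said otherwise. The start codon factor eif1 had 312, 336 and 348 CPM with 2ME, against 442, 493 and 479 CPM in DMSO tails (−0.51 ± 0.07, adjusted p = 6.99e-05), and the main eif1b model had 306, 329 and 330 CPM, against 431, 480 and 409 CPM in DMSO tails (−0.45 ± 0.07). The eif3c-like gene eif3cl had 56, 45.2 and 51.7 CPM, against 77.8, 81.4 and 72.9 CPM in DMSO tails (−0.60 ± 0.09, adjusted p = 0.000193). The groups did not overlap in these genes. Among synthetases gars1, which in human serves both compartments, had 365, 370 and 358 CPM with 2ME, against 444, 494 and 464 CPM in DMSO tails (−0.36 ± 0.06, adjusted p = 0.000191). The eEF1B subunits fell together by about 0.3 (eef1g −0.31 ± 0.07, eef1d −0.31 ± 0.07, eef1b2 −0.30 ± 0.08), although eef1b2 was not called without a scaling factor (adjusted p = 0.0555). In the other direction, eif2b5 had 55.2, 53.7 and 50.8 CPM with 2ME, against 42.8, 45.5 and 45.7 CPM in DMSO tails (0.25 ± 0.06, adjusted p = 0.00433), and eef1aknmt rose by 0.25 ± 0.06. The rise of eef1aknmt was not particular to 2ME, since it was called higher than DMSO with each compound. Its mean was 59.2 CPM with 2ME, 58.5 CPM with echinomycin and 57 CPM with IWR-1, against 49.7 CPM in DMSO tails.

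Other calls with 2ME were less firm. The rise of the mitochondrial enzyme pars2 (0.33 ± 0.11, adjusted p = 0.0282) was lost when any of the 6 libraries other than DMSO replicate 1 was left out, with adjusted p up to 0.0867. The rise of the scaffold eif4g1 (0.21 ± 0.07, adjusted p = 0.0259) was lost without DMSO replicate 1 or 2 or 2ME replicate 1 or 2, with adjusted p up to 0.104. The small falls of eif4a1, eif4e, eif5a, eef1a1 and the tyrosine enzyme yars2 (−0.17 to −0.29) were each lost without a scaling factor, without DMSO replicate 2 (−0.11 to −0.18) and without 2ME replicate 1 (−0.15 to −0.27). Of these, eef1a1, eif4a1 and yars2 were also lost without 2ME replicate 3, and eef1a1 without DMSO replicate 1 or 2ME replicate 2. The release factor etf1 was not called with 2ME, at 202, 203 and 202 CPM, against 190, 194 and 193 CPM in DMSO tails (0.07 ± 0.05, adjusted p = 0.253).

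The kinases that restrain translation each had a pattern of their own over the 5 groups. The eEF2 kinase eef2k, which slows elongation when active, had 13.1, 11.7 and 9.28 CPM with 2ME, 12.1, 16.8 and 15.9 CPM with echinomycin and 14.5, 17.4 and 15.6 CPM with IWR-1, against 8.09, 5.72 and 8.6 CPM in DMSO tails and 19.1, 20.2 and 16 CPM in 0 hpa tails. It was the most strongly lowered member in DMSO tails relative to 0 hpa (−1.31 ± 0.17, adjusted p = 3.36e-06), and every DMSO library lay below every library of the other groups. Its counts are partly shared with another model. Relative to DMSO it rose with 2ME (0.60 ± 0.17, adjusted p = 0.0129), echinomycin (1.00 ± 0.17, adjusted p = 0.000106) and IWR-1 (1.09 ± 0.17, adjusted p = 7.69e-05). The rise with 2ME was lost without DMSO replicate 2 (0.45, adjusted p = 0.0733) and without 2ME replicate 1 (0.49, adjusted p = 0.0711). The muscle markers were likewise lowest in DMSO tails and highest in 0 hpa tails. Of the 15 tested, 14 fell in DMSO tails relative to 0 hpa, where 30.8% of all models fell. Relative to DMSO 11 rose with 2ME, 13 with echinomycin, where 1 fell, and 14 with IWR-1. The shares of all models that rose were 14.0%, 24.6% and 19.9% in the same order. The part of the muscle markers in the pattern of eef2k was not tested. Its target eef2.1 had ratios of −0.11 ± 0.05 (2ME), −0.18 ± 0.05 (echinomycin) and −0.06 ± 0.05 (IWR-1), and of these only the one with echinomycin was called.

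Of the eIF2 kinases, which lower initiation under stress, eif2ak1 (HRI), the haem sensor, had 28.9, 30.6 and 25.8 CPM with 2ME, 41.5, 29.3 and 37.6 CPM with echinomycin and 19.8, 17.7 and 18.5 CPM with IWR-1, against 20.8, 21.1 and 20.6 CPM in DMSO tails and 37.8, 23.1 and 25.8 CPM in 0 hpa tails. It rose with echinomycin (0.79 ± 0.15, adjusted p = 0.000286) and with 2ME (0.45 ± 0.15, adjusted p = 0.0313), and with IWR-1 it had a ratio of −0.16 ± 0.15 (adjusted p = 0.429). The 2ME call was lost without any of the 6 libraries other than 2ME replicate 3, with adjusted p up to 0.103. In direct comparison it was higher with echinomycin than with IWR-1 (0.95 ± 0.15, adjusted p = 0.000104) and higher with 2ME than with IWR-1 (0.61 ± 0.15, adjusted p = 0.00725). In DMSO tails it was lower than at 0 hpa (−0.47 ± 0.15, adjusted p = 0.0126), but not without 0 hpa replicate 1 (−0.25, adjusted p = 0.0938). That library, where eif2ak1 was highest at 0 hpa, also had the highest summed level of 11 erythroid markers, 9990 CPM, against 2380 and 3350 CPM in the other 0 hpa libraries. With 2ME these markers summed to 80.5 to 111 CPM, with echinomycin to 144 to 296 CPM and with IWR-1 to 167 to 289 CPM, against 75.2 to 106 CPM in DMSO tails. The part of erythroid cells in the eif2ak1 values was not tested.

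The kinase of the endoplasmic reticulum, eif2ak3 (PERK), separated echinomycin from IWR-1. It had 26.6, 25.6 and 25.6 CPM with 2ME, 16.7, 20.9 and 19.4 CPM with echinomycin and 30.9, 30.7 and 32.3 CPM with IWR-1, against 24.9, 22.5 and 26.4 CPM in DMSO tails and 21.4, 24.6 and 23.2 CPM in 0 hpa tails. It rose with IWR-1 (0.35 ± 0.08, adjusted p = 0.00338) and fell with echinomycin (−0.37 ± 0.09, adjusted p = 0.00188), although the fall was not called without a scaling factor (−0.23, adjusted p = 0.0649). Set directly, echinomycin was below IWR-1 by a log2 ratio of −0.72 ± 0.09 (adjusted p = 7.33e-06). The double-stranded RNA sensor eif2ak2 (PKR) rose in DMSO tails, with 16.6, 15.3 and 18 CPM, against 8.33, 9.01 and 9.25 CPM in 0 hpa tails (0.91 ± 0.11, adjusted p = 2.54e-06). It was lower with echinomycin (−0.29 ± 0.11, adjusted p = 0.0312) and with IWR-1 (−0.33 ± 0.11, adjusted p = 0.0213) than in DMSO tails. Its levels were 14.9, 12.7 and 13.2 CPM with echinomycin and 11.9, 14.5 and 13.4 CPM with IWR-1. Whether these 2 calls hold under other scalings was not tested. The sensor of uncharged tRNA, eif2ak4 (GCN2), rose in DMSO tails by 0.26 ± 0.07 and had ratios of 0.01 with 2ME, 0.00 with echinomycin and −0.02 with IWR-1, none of them called.

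**Figure D5:**
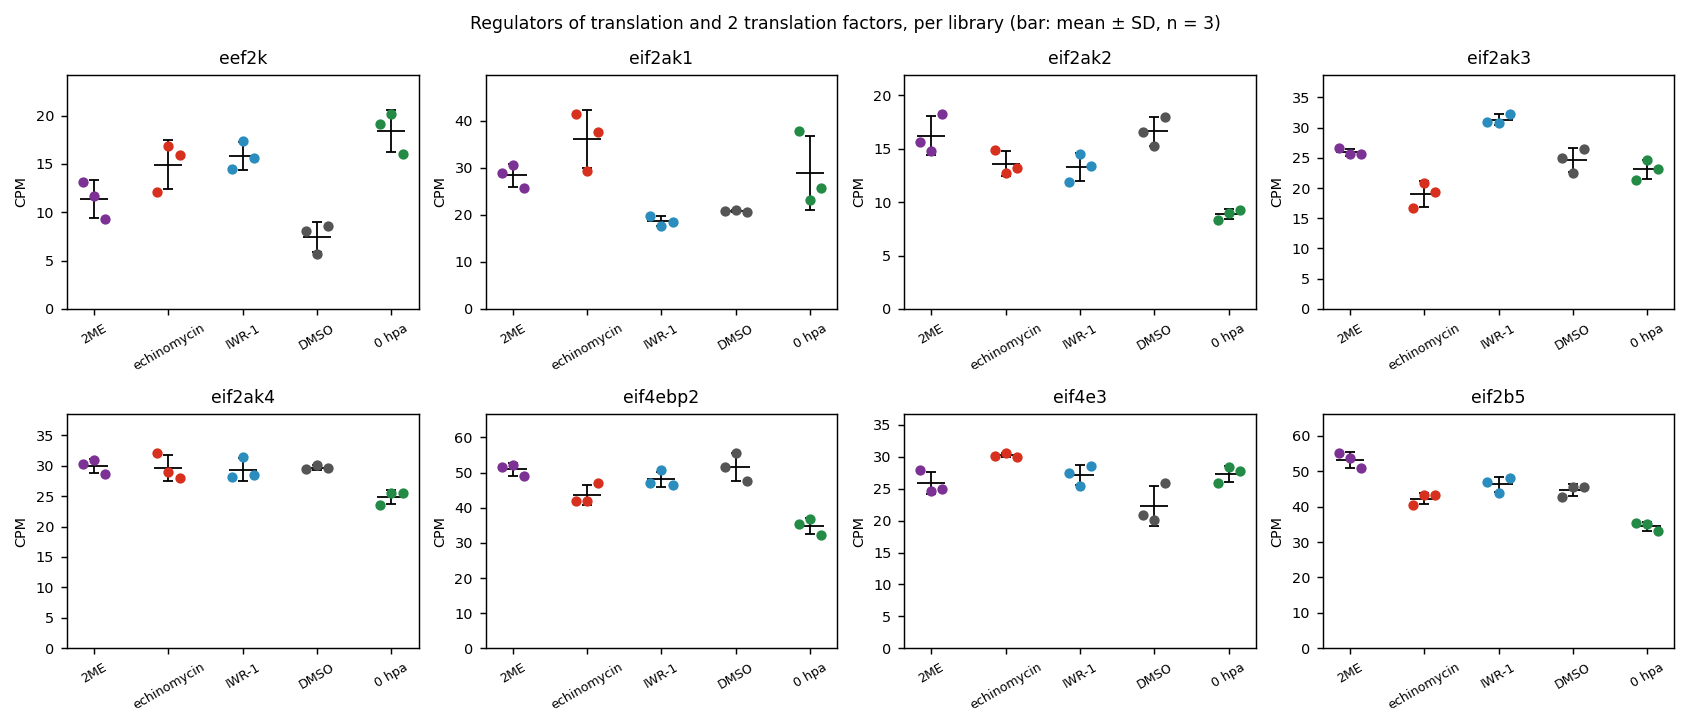
CPM in each library (points), with mean ± SD of 3 libraries (bars), of eef2k, the eIF2 kinases eif2ak1 to eif2ak4, the repressor eif4ebp2, the cap-binding relative eif4e3 and the eIF2B subunit eif2b5, in 2ME, echinomycin, IWR-1, DMSO and 0 hpa tails. The DMSO points of eef2k (5.72 to 8.6 CPM) lie below all others, eif2ak1 is highest on average with echinomycin, and eif2ak3 is highest with IWR-1.

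Set against each other, the compounds differed most between 2ME and echinomycin. Of 99 tested members 71 were called, where 44.1% of all tested models were: 66 were higher with 2ME than with echinomycin and 5 lower, against 22.8% and 21.3% of all models. For 78 members these groups did not overlap, which held for 54.3% of all models, and the low gene eef1a2 alone differed at least 2-fold, where 10.5% of all models did. Release factor etf1 differed with the smallest p (202, 203 and 202 CPM with 2ME, against 138, 138 and 131 CPM with echinomycin, 0.58 ± 0.05, adjusted p = 6.18e-08), followed by eif4a1 (0.58 ± 0.05) and eif6 (0.49 ± 0.05). For all 3 genes the 2ME libraries lay above the echinomycin libraries. Among synthetases 28 of 34 were higher with 2ME and none lower. Without a scaling factor the split was 66 higher and 5 lower. With upper-quartile factors 49 were higher and 7 lower.

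Members were also lower with echinomycin than with IWR-1 more often than higher. Of 99 tested members 48 were called, where 34.8% of all tested models were: 45 were lower and 3 higher, against 18.6% and 16.2% of all models. For 61 members these groups did not overlap, which held for 46.6% of all models, and 0 members differed at least 2-fold, where 5.84% of all models did. Among synthetases, 24 of 34 were lower with echinomycin and none higher. The mitochondrial enzyme iars2 had 37.1, 39.3 and 38.9 CPM with echinomycin, against 60.5, 59 and 59.2 CPM with IWR-1 (−0.63 ± 0.06, adjusted p = 7.82e-07). The cytosolic vars1 had 105, 121 and 111 CPM with echinomycin, against 154, 159 and 166 CPM with IWR-1 (−0.51 ± 0.06, adjusted p = 9.19e-06). Both genes gave groups without overlap.

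Between 2ME and IWR-1 fewer members differed. Of 99 tested members 26 were called, where 22.5% of all tested models were: 21 were higher with 2ME and 5 lower, against 11.1% and 11.4% of all models. For 50 members these groups did not overlap, which held for 40.8% of all models, and 0 members differed at least 2-fold, where 4.39% of all models did. The smallest p values were those of etf1 (202, 203 and 202 CPM with 2ME, against 166, 169 and 178 CPM with IWR-1, 0.24 ± 0.05, adjusted p = 0.00127), mars1 (0.27 ± 0.05, adjusted p = 0.00157) and hars2 (0.30 ± 0.06, adjusted p = 0.00164). No eIF3 gene was called between 2ME and IWR-1, with log2 ratios of up to 0.17. Without 2ME replicate 3 the calls numbered 15, and without 2ME replicate 2 or without IWR-1 replicate 3 they numbered 17 each.

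Related genes outside the symbol rule were read beside the members. Their calls, in every list given here, were not tested under other scalings. Among 17 tested partners of translation, 11 rose and 2 fell in DMSO tails relative to 0 hpa, where 32.2% and 30.8% of all models did. Relative to DMSO 7 fell and 3 rose with 2ME, 9 and 2 with echinomycin, and 10 and 3 with IWR-1. In the same order, the shares of all models were 16.5% and 14.0%, 27.0% and 24.6%, and 22.4% and 19.9%. The ribosome-associated ATPase abcf1 averaged 397 CPM in DMSO tails, against 186 CPM in 0 hpa tails (log2 ratio 1.10, adjusted p = 3.22e-10), and 233 CPM with echinomycin (log2 ratio −0.77 relative to DMSO, adjusted p = 1.03e-07). Of 8 synthetases and complex scaffolds that the rule leaves out, 3 rose and 3 fell in DMSO tails, near the shares of all models. With echinomycin 6 of them fell and none rose. The catalytic phenylalanine subunit farsa rose in DMSO tails (log2 ratio 0.68) and fell with echinomycin (log2 ratio −0.63).

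Of 20 tested genes of the integrated stress response, which eIF2 phosphorylation sets off, 14 rose and 2 fell in DMSO tails relative to 0 hpa. In that comparison 32.2% of all models rose and 30.8% fell. Relative to DMSO 9 fell and 3 rose with 2ME, 10 and 4 with echinomycin, and 7 and 5 with IWR-1. The shares of all models that fell were 16.5%, 27.0% and 22.4%, and those that rose were 14.0%, 24.6% and 19.9%. The transcription factor atf4, whose mRNA is translated when eIF2 is phosphorylated, averaged 699 CPM with 2ME, 760 CPM with echinomycin and 631 CPM with IWR-1, against 885 CPM in DMSO tails and 683 CPM in 0 hpa tails, and was called lower than DMSO with each compound. Its target chac1, a glutathione-degrading enzyme, averaged 78.1 CPM with 2ME, 88.8 CPM with echinomycin and 112 CPM with IWR-1, against 163 CPM in DMSO tails and 42.9 CPM in 0 hpa tails. Another target, the cystine transporter slc7a11, went the other way with 18.4 CPM with 2ME and 26.1 CPM with IWR-1, both called higher than 8.4 CPM in DMSO tails, and had 7.2 CPM with echinomycin, which was not called. The list thus held called changes in both directions with every compound, and its rises were near the shares of all models.

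The mTOR pathway, which controls 4E-BPs and eEF2 kinase, had 5 of 16 tested genes higher and 5 lower in DMSO tails relative to 0 hpa, close to the 32.2% and 30.8% of all models. Relative to DMSO 6 rose and 4 fell with 2ME (14.0% and 16.5% of all models), 5 and 7 with echinomycin (24.6% and 27.0%), and 7 and 4 with IWR-1 (19.9% and 22.4%). The GTPase rragd, which links lysosomal amino acids to mTOR, averaged 4.92 CPM with 2ME, 6.54 CPM with echinomycin and 6.51 CPM with IWR-1, against 3.53 CPM in DMSO tails and 14.6 CPM in 0 hpa tails. The mTOR inhibitor deptor averaged 5.48 CPM with 2ME, 5.72 CPM with echinomycin and 9.23 CPM with IWR-1, against 3.26 CPM in DMSO tails and 10.1 CPM in 0 hpa tails. Both were called in each of these 4 comparisons, and for both DMSO tails had the lowest mean. The mTOR activator rheb fell with each compound, most with echinomycin (86.7 CPM, against 132 CPM in DMSO tails, log2 ratio −0.60).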

How the data were processed

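The authors deposited kallisto output with an estimated count for each gene model, per the file headers, after trimming with Trim Galore 0.6.5, per the submitters' processing notes. The version of kallisto was not given in the sources used here, nor was the build. Counts were rounded and fitted over all 15 libraries with edgeR 4.0.16 in R 4.3.3 (TMM factors, filterByExpr with a minimum count of 10 and a total of 15, quasi-likelihood F test, Benjamini-Hochberg adjustment over 18823 models). The TPM values deposited by the authors, scaled per length, served for levels between genes. The authors' deposited CPM carry no TMM factor and were tested with limma 3.58.1 on log2(CPM + 1) as an alternative, as was DESeq2 1.42.0.

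Of 100 members, 80 have whole counts in every library. The other 20, which share reads with another model and are less certain, include eef2k, eif2ak3, eif3c, eif3cl, eif4e, tars1, yars1 and pars2. Values of 1 member are not reported here, though it stays in the counts and sums. Members and lists were chosen with earlier results of these data known. Naming by rule took up to 3 largest rises and falls per class and comparison, and a set of core factors. It also took the 3 most abundant members per class and the 3 smallest p values between compounds. Not all of these are given with values in every library, and some appear by ratio only or not at all. Others, such as eif2ak2, eif3a and eif3h, were added after their values were seen. What a replicate number means is left unsaid in the labels, so p-values measure the spread between these samples, which may be technical. Same-numbered libraries did not deviate together (r −0.144 to 0.126). The treatment labels of the IWR libraries count up with the replicate (IWR-1, IWR-2, IWR-3) at 1 dose, and the design text names IWR-1 only, so all 3 were taken as IWR-1, which the labels leave unsettled. Figures used matplotlib 3.10.9. Sequences and coordinates are not used here.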

Additional observations from a re-analysis of the deposited data

How the results depend on the processing

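Of 128 ratios of named members, 2114 values under the alternatives kept direction and call, 129 lost the call, 6 gained it and 39 changed sign, all 39 for ratios that were not called. Member counts stayed within 1.5 times in 377 of 414 cases. The counts that moved were 14 lower in DMSO against 0 hpa and 13 higher with IWR-1 (upper-quartile factors). Without a scaling factor 18 were higher and 10 lower with 2ME (5 elongation factors called), and 19 higher and 29 lower with IWR-1. With limma on the deposited CPM, at either pseudocount, 17 were higher and 10 lower with 2ME, and 20 higher and 28 lower with IWR-1. At an adjusted p under 0.01, 2 were higher and 16 lower with 2ME (9 initiation factors, 4 elongation factors, 5 synthetases), and 13 differed between 2ME and IWR-1. On 2 further scales, chosen after seeing the data, DMSO tails were the highest group for 37 (no scaling factor) and 14 (TPM) members, against 66 with TMM factors, and echinomycin tails the lowest for 21 and 21, against 35. Leaving out 1 library gave 2 to 7 higher and 13 to 27 lower with 2ME, 8 to 21 initiation factors, 4 to 6 elongation factors and 3 to 9 synthetases called, and 15 to 22 called between 2ME and IWR-1. With the replicate number as a block, 69 were higher and 9 lower in DMSO against 0 hpa, 7 and 27 with 2ME, 6 and 77 with echinomycin, 8 and 54 with IWR-1, 65 and 5 for 2ME against echinomycin, 20 and 3 for 2ME against IWR-1, and 2 and 43 for echinomycin against IWR-1. The block moved none of these counts by over 1.5 times, apart from the 3 lower with 2ME than with IWR-1 (5 without it).

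The sign changes were these log2 ratios. For eif4ebp2 with 2ME they were 0.0035 (upper-quartile), 0.1226 (no scaling), 0.0034 (the 2 groups alone) and 0.1207 and 0.1229 (limma), with a range of −0.0588 to 0.0512 when 1 library was left out. Without scaling and with limma (pseudocounts of 1 and 0.1), eif2s1 with 2ME was 0.0442, 0.0441 and 0.0442, eef2.1 with 2ME 0.0322, 0.0324 and 0.0324, kars1 with 2ME 0.0233, 0.0232 and 0.0233, eif4ebp2 with IWR-1 0.0588, 0.058 and 0.059, and eef2.1 with IWR-1 0.1049, 0.1054 and 0.1054. For eef1a2 with IWR-1 they were 0.0218 (upper-quartile), 0.1378 (no scaling), 0.0035 (the 2 groups alone), 0.0002 (DESeq2) and 0.1053 and 0.1677 (limma), with −0.1534 to 0.3023 when 1 library was left out. For the short sars2 model they were −0.0616 (upper-quartile) and −0.0549 (length offset) in DMSO against 0 hpa, with −0.055 to 0.0574 when 1 library was left out, and 0.0084 (upper-quartile) and 0.1248 (no scaling) with IWR-1, with −0.1274 to 0.0438 when 1 library was left out. For eif2ak3 in DMSO against 0 hpa it was −0.0021 (upper-quartile). The cause of the other shifts was not tested. Members at about 1 CPM, such as eef1a2 and the short eif1b model, had standard errors near 0.3, against under 0.1 for most members, so smaller differences were not detectable for them.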
